A study of Mus musculus with 12 samples.

Results

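Hepatokines are proteins that the liver secretes into the blood and that act on other organs. The 9 transcripts described here, Fgf21, Gdf15, Angptl8, Angptl4, Ahsg, Fetub, Selenop, Lect2 and Fst, were taken by gene symbol from a liver count table of 55291 genes, as secreted liver factors linked to diet or to exercise. Of the 18305 genes with counts high enough to test, all 9 were members of the tested set. The study asked how the liver transcriptome of mice with fatty liver differed after different forms of exercise.

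The mice were male C57BL/6, an inbred laboratory strain, and were 6 weeks old at the start. The NC group ate a normal diet. The HFD group ate the high-fat diet D12492, and so did both exercise groups. After 8 weeks on that diet the HFD+AE and HFD+RE groups began exercise, which went on for at least 12 weeks, while the HFD group did not exercise. AE and RE appear only as abbreviations in the labels, and commonly mean aerobic and resistance training. There were 4 groups of 3 libraries, numbered as in the labels: 2, 4 and 5 for NC, 1 to 3 for HFD and for HFD+AE, and 3 to 5 for HFD+RE. Whether the libraries within a group are separate mice is not stated, so every p-value reflects the spread between samples only, and that spread may be technical.

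Several of these proteins are stress or nutrient signals. FGF21 is induced through PPARA during fasting and through ATF4 under amino acid or endoplasmic reticulum stress, and GDF15 is a stress signal read in the hindbrain. ANGPTL8 and ANGPTL4 restrain lipoprotein lipase, the enzyme that frees fatty acids from circulating triglyceride, and ANGPTL8 rises with feeding and insulin. The fetuins AHSG and FETUB, the selenium carrier SELENOP and LECT2 have been linked to insulin resistance in fatty liver, and follistatin, the product of Fst, binds activins and is released by the liver after exercise.

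Total counts per library ran from 44373214 to 77665729. Alb, the gene of serum albumin and a defining hepatocyte marker, took 4.25% to 9.82% of the counts of every library. The summed level of 10 hepatocyte markers was 117393 to 136666 CPM (counts per 1000000 counts of the scaled library total) in NC, 64830 to 93811 in HFD, 120978 to 131900 in HFD+AE and 94436 to 125249 in HFD+RE. On the first principal component of log2 CPM, which held 40.6% of the variance, HFD+AE 3 (14.0 against -40.4 and -36.9), HFD+RE 3 (-36.6 against 50.4 and 52.6) and HFD 2 (23.0 against 67.4 and 80.8) each lay apart from the other libraries of their group. Mitochondrial rRNA genes took 0.708% to 0.924% of the counts in NC, 1.76% to 3.26% in HFD, 0.771% to 0.867% in HFD+AE and 0.685% to 1.71% in HFD+RE. For each library, the log2 CPM of each gene minus its mean over the 12 libraries was set against exon length by rank correlation. The correlation was 0.08 to 0.21 in the NC libraries and -0.29 to -0.15 in HFD. It was -0.03 to 0.29 in HFD+AE and -0.31 to 0.22 in HFD+RE. Its sign is relative to the other libraries. Both measures thus separated HFD from NC and from HFD+AE. The mitochondrial share of every HFD+RE library also lay below that of every HFD library. The length correlation of HFD+RE spanned most of the range of the 12 libraries. With the length trend removed, the log2 changes in HFD against NC were 1.79 for Fgf21, 1.18 for Angptl8 and -0.66 for Ahsg, which passed. Gdf15 (1.81) and Lect2 (0.19) did not pass. In HFD+AE against HFD the changes were -0.34 for Fgf21, -0.31 for Angptl8 and 0.61 for Lect2, and none of these passed. The part of the mitochondrial share was not tested. In whole liver, fewer cells of a type and less RNA per cell cannot be told apart.

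Compared per kilobase of exon, the 9 transcripts covered a wide range of levels. Ahsg averaged 2425 CPM per kilobase over the 12 libraries, rank 28 of the genes tested, and Selenop averaged 1856, rank 31. Fetub followed at 253 CPM per kilobase and Lect2 at 122. Angptl4 and Angptl8 were close to each other, at 47.5 and 43.4 CPM per kilobase, and their libraries overlapped. Fgf21 averaged 4.82, Gdf15 3.59 and Fst 0.553 CPM per kilobase. The spread between libraries was widest for 3 transcripts. The highest library exceeded the lowest 10.1-fold for Gdf15, 9.78-fold for Fgf21 and 7.50-fold for Angptl8, but at most 3.44-fold for each of the other 6 transcripts.

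**Figure D1:**
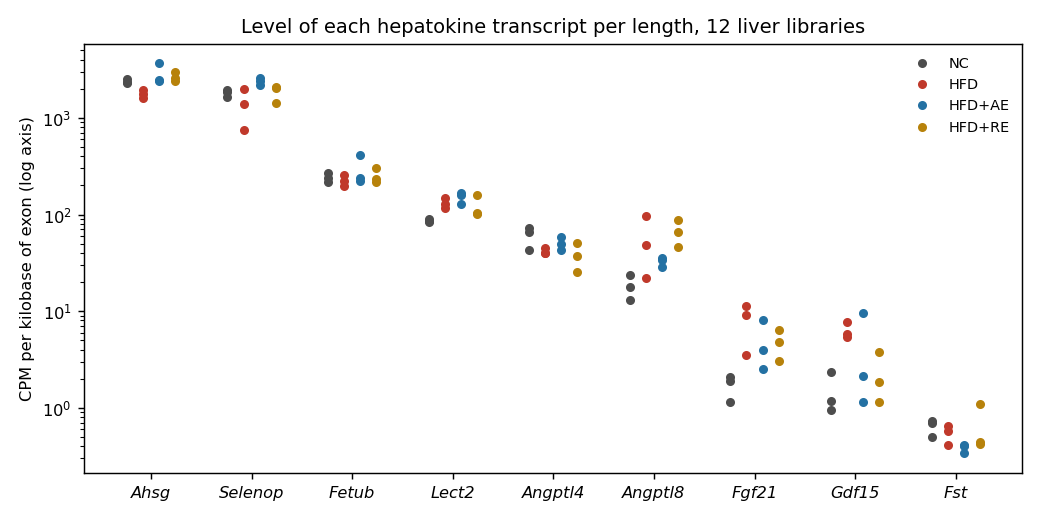
Level of each hepatokine transcript per kilobase of exon (CPM per kilobase, log axis) in the 12 liver libraries, with 1 point per library coloured by group. Ahsg and Selenop are the highest in each group, and Fst, at a mean of 0.553 CPM per kilobase, is the lowest.

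In HFD against NC, 3 of the 9 transcripts passed the test, all of them higher in HFD. Fgf21 was 4.68-fold, Gdf15 4.23-fold and Angptl8 3.10-fold higher in HFD than in NC, and no hepatokine transcript passed the test in the other direction. The share of all tested genes that passed (adjusted p below 0.05) was 15.6%, and 8.38% passed as higher. At an unadjusted p below 0.05, 4 of the 9 passed, against 34.7% of genes. Groups did not overlap for 4 of the 9 transcripts, Fgf21, Gdf15 and Lect2 above and Ahsg below NC, against 46% of all genes. The median log2 change was -0.09 over the 9 transcripts and 0.01 over all genes tested. These counts depended on single libraries, as given with each gene.

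The proximal promoters of the 3 transcripts that passed are shown because they rose in the same comparison, and because Fgf21 and Angptl8 both carry the letters of an ATF4 site. Each window holds the 250 bases before the transcription start from RefSeq on GRCm38.p6, written 5′ to 3′ on the strand of the gene, with motif matches in capitals. The Fgf21 window is chr7:45615491-45615740 (minus strand), that of Gdf15 is chr8:70632457-70632706 (minus strand) and that of Angptl8 is chr9:21835260-21835509 (plus strand).
Fgf21: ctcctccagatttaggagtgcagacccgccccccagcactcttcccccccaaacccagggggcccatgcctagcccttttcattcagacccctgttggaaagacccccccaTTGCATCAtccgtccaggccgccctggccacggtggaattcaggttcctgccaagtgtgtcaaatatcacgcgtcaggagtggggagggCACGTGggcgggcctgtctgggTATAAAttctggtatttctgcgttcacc
Gdf15: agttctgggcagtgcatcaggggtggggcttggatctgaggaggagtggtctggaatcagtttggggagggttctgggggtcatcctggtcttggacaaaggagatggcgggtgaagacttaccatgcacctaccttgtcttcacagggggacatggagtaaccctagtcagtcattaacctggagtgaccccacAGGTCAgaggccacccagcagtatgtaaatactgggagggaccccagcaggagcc
Angptl8: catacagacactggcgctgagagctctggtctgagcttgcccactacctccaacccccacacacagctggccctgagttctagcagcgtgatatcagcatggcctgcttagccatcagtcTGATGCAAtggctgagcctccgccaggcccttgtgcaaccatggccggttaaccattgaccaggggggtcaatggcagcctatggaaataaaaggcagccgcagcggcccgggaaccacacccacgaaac
The motifs searched, on both strands, were that of ATF4 spelled TGATGNAA, the E-box spelled CACGTG, that of FOXO factors spelled GTAAACA, that of nuclear receptors spelled AGGTCA, that of SREBP spelled TCACNCCAC and the TATA box spelled TATAAA, and no match overlapped another. The ATF4 motif stood at -139 to -132 of Fgf21, on the opposite strand, and at -130 to -123 of Angptl8, counted back from the transcription start, and 3.45% of 32851 promoters of the same length hold it. Fgf21 also held an E-box at -50 to -45 (6.02% of promoters) and a TATA box at -28 to -23 (12.4%). Gdf15 held AGGTCA at -55 to -50 (14%), and a window before its other listed start held an E-box at -83 to -78. Neither Gdf15 window held the ATF4 motif. A match of letters is a description and not a binding site. Promoters matched 7 of the 9 genes; Angptl4 and Fst had no entry. Among the other matched genes, GTAAACA (3.17%) and TATAAA were found in windows of Fetub and Selenop, and TCACNCCAC (1.05%) was found in none.

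Fgf21 lies on chromosome 7 at 45613886 to 45615490 (mm10, minus strand). Its level was 1.10, 1.78 and 2.00 CPM in NC 2, 4 and 5 and 8.76, 3.38 and 10.7 CPM in HFD 1, 2 and 3. In the exercise groups it was 2.40, 3.76 and 7.62 CPM in HFD+AE 1, 2 and 3, and 2.87, 4.58 and 6.09 CPM in HFD+RE 3, 4 and 5. Every library on the high-fat diet, exercised or not, exceeded every NC library, while the 3 high-fat groups overlapped one another. The log2 change was 2.23 (SE 0.49, edgeR adjusted p = 0.015) in HFD against NC. That call was lost without NC 2 (adjusted p = 0.058), NC 4 (0.055), HFD 1 (0.058) or HFD 3 (0.077), with log2 changes from 1.90 to 2.29, and without HFD 2 it was 2.58 (adjusted p = 0.0072). Against the same HFD libraries, Fgf21 differed by -0.74 log2 (SE 0.47, adjusted p = 0.33) in HFD+AE and by -0.76 (SE 0.47, adjusted p = 0.67) in HFD+RE. The 95% intervals, -1.74 to 0.27 and -1.76 to 0.25, hold both no change and a fall of more than 3-fold, and with the length trend removed the HFD+AE value was -0.34 (adjusted p = 0.62). Against NC, HFD+AE was 1.49 higher (SE 0.48, adjusted p = 0.17) and HFD+RE 1.47 higher (SE 0.48, adjusted p = 0.095). DESeq2 called both, with adjusted p = 0.040 and 0.025, and without HFD+RE 3 the latter was 1.71 (adjusted p = 0.031).

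Gdf15 encodes a distant member of the TGF-beta family that lowers food intake and lies on chromosome 8 at 70629393 to 70632456 (minus strand). Gdf15 stood at 4.37, 1.76 and 2.16 CPM in NC 2, 4 and 5, and at 14.3, 10.7 and 10.0 CPM in HFD 1, 2 and 3. It stood at 3.94, 2.14 and 17.8 CPM in HFD+AE 1, 2 and 3, and at 2.10, 6.98 and 3.41 CPM in HFD+RE 3, 4 and 5. All 3 HFD libraries exceeded all NC and all HFD+RE libraries. HFD+AE 3 was the highest of the 12 libraries, although HFD+AE 1 and 2 lay within the NC range. The change in HFD against NC was 2.08 log2 (SE 0.66, edgeR adjusted p = 0.0499). This call sat at the threshold: it held in 7 of 19 alternative analyses, and leaving out any 1 of the 6 NC and HFD libraries ended it (adjusted p = 0.061 without HFD 2 to 0.16 without NC 4, log2 1.84 to 2.56). It also ended without HFD+AE 1, HFD+RE 3 or HFD+RE 5, which enter only through the shared spread (adjusted p = 0.051, 0.053 and 0.057), and with the length trend removed (1.81, adjusted p = 0.070). Gdf15 was 1.49 log2 lower in HFD+RE than in HFD (-1.49, SE 0.65, adjusted p = 0.53, interval -2.89 to -0.09), and 0.55 lower in HFD+AE (-0.55, SE 0.64, adjusted p = 0.60). Without HFD+AE 3 the HFD+AE value was -1.94 (adjusted p = 0.077), and without both HFD+AE 3 and HFD+RE 3 it was -1.93 and passed (adjusted p = 0.018). Between the exercise groups the change was -0.93 (HFD+RE against HFD+AE, adjusted p = 0.64), and it turned to 0.44 without HFD+AE 3. Against NC, Gdf15 differed by 1.52 in HFD+AE (adjusted p = 0.31), or 0.14 without HFD+AE 3, and by 0.59 in HFD+RE (adjusted p = 0.58), or -0.00053 without HFD+RE 4.

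Some FGF receptor and co-receptor genes fell in the diet comparison. Of 9 receptor genes and relatives, 6 could be tested, all of them of the FGF system. Gfral and Ret, which encode the GDF15 receptor, had too few counts. In HFD against NC, 3 of the 6 fell, 3 did not pass and none rose (median -0.72 log2, all genes 0.01). Over all genes, 15.6% passed in that comparison. Klb encodes beta-klotho, the co-receptor that FGF21 needs, and stood at 34.0, 34.5 and 36.5 CPM in NC 2, 4 and 5 and at 10.5, 20.4 and 10.0 CPM in HFD 1, 2 and 3. It stood at 33.7, 35.9 and 27.7 CPM in HFD+AE and at 32.1, 23.7 and 15.7 CPM in HFD+RE. Every HFD+AE library thus exceeded every HFD library, and HFD+RE overlapped HFD. Klb fell by 1.36 log2 in HFD (SE 0.29, adjusted p = 0.014), and did not pass once HFD 1 or HFD 3 was left out (adjusted p = 0.071 and 0.077). Its differences from HFD were 1.25 in HFD+AE (adjusted p = 0.061) and 0.80 in HFD+RE (adjusted p = 0.42). Fgfr4, the main FGF receptor of hepatocytes, fell by 0.75 (adjusted p = 0.034) and Fgfr2 fell by 0.69 (adjusted p = 0.047). The Fgfr4 call was lost without NC 2, NC 4, HFD 1 or HFD 3 (adjusted p = 0.098 to 0.14) and the Fgfr2 call in 9 of the 12 single-library omissions (0.052 to 0.19). No receptor gene passed in any of the other 5 comparisons.

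Genes of the pathways known to induce Fgf21 and Gdf15 passed about as often as all genes tested (15.6%). Of 17 ATF4 and CHOP targets tested, 1 rose, 1 fell and 15 did not pass in HFD against NC (median 0.34 log2). Ddit3, which encodes CHOP, rose by 0.97 log2 (SE 0.28, adjusted p = 0.035), from 9.18 ± 3.95 CPM in NC to 18.0 ± 1.75 CPM in HFD (SD, n = 3). Asns, the asparagine synthetase gene, fell by 3.79 (SE 0.88, adjusted p = 0.018), from 2.94 ± 2.06 to 0.210 ± 0.0386 CPM. Atf4 itself differed by 0.56 (adjusted p = 0.093). Among 19 PPARA targets, 3 rose, none fell and 16 did not pass (median 0.15 log2). These were Vnn1 (1.43, adjusted p = 0.024), the peroxisomal thiolase gene Acaa1b (1.06, adjusted p = 0.036) and Ppara itself (0.55, adjusted p = 0.049). Each of these 5 calls was lost in 4 to 9 of the 12 single-library omissions, with adjusted p from 0.051 to 0.16.

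**Figure D2:**
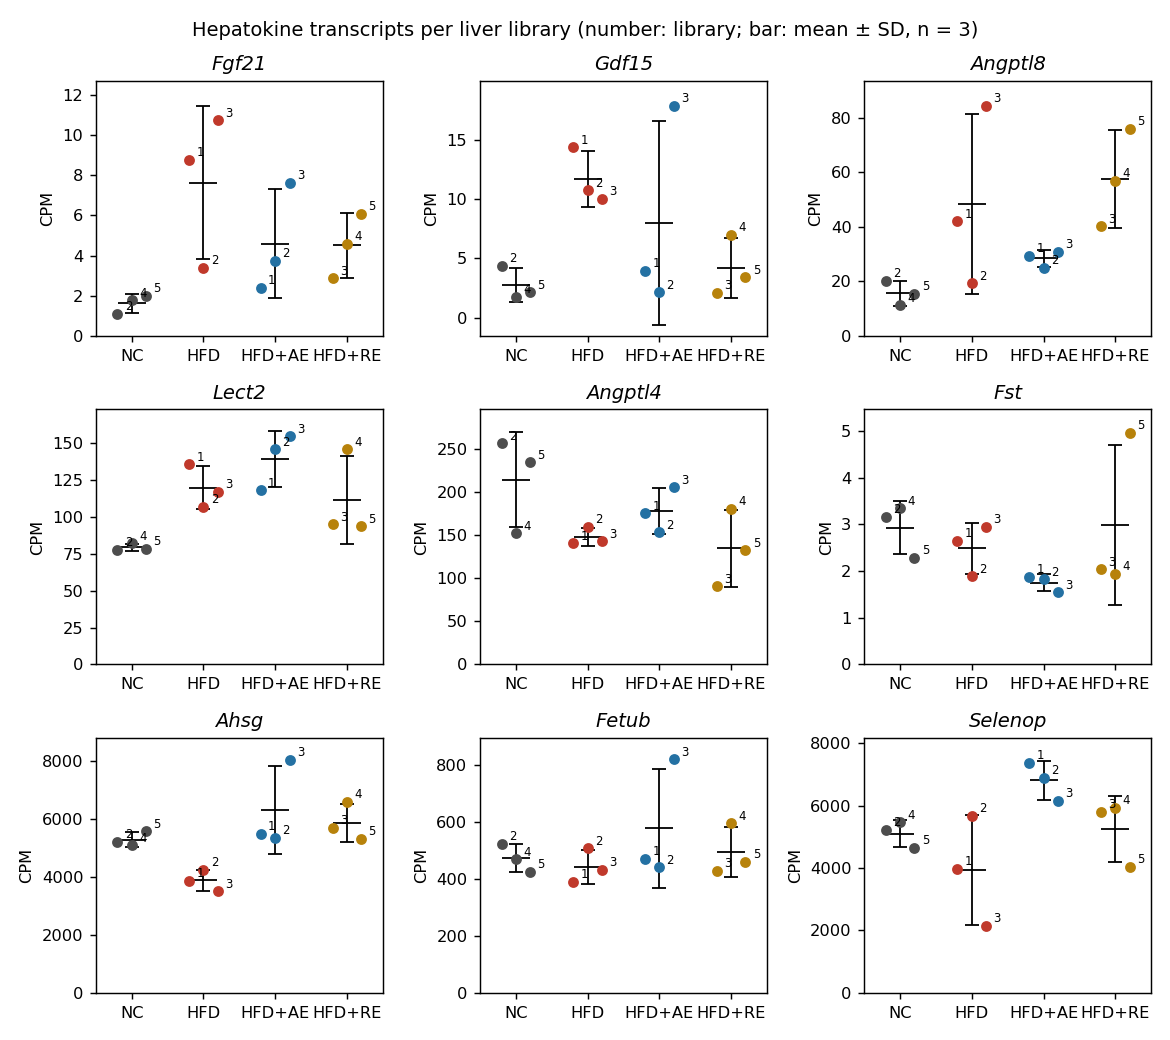
Level of each of the 9 hepatokine transcripts (CPM) in each liver library, by group; the number beside a point is the library number, and bars give the mean and SD of 3 libraries. HFD+AE 3 is the highest library for Gdf15, Lect2, Ahsg and Fetub, and HFD 3 is the highest for Fgf21 and Angptl8 and the lowest for Selenop.

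Angptl8, also called betatrophin, lies on chromosome 9 at 21835510 to 21837347 (plus strand), within Dock6 on the opposite strand, with 0 shared exon bases. Its level was 20.3, 11.2 and 15.4 CPM in NC 2, 4 and 5 and 42.0, 19.2 and 84.2 CPM in HFD 1, 2 and 3. It was 29.3, 25.0 and 30.9 CPM in HFD+AE 1, 2 and 3 and 40.1, 56.7 and 75.9 CPM in HFD+RE 3, 4 and 5. HFD 2 lay within the NC range, so HFD and NC overlapped, whereas all HFD+AE and all HFD+RE libraries exceeded NC and all HFD+RE libraries exceeded HFD+AE. The change was 1.63 log2 in HFD against NC (SE 0.42, adjusted p = 0.025). It was lost without NC 4 (adjusted p = 0.097), NC 5 (0.056), HFD 1 (0.066) or HFD 3 (0.97 log2, 0.14), and was larger without HFD 2 (2.01, adjusted p = 0.0058). Between HFD+RE and NC the change was 1.88 (SE 0.42, adjusted p = 0.030), the only edgeR call among the 9 transcripts between an exercise group and NC. This call was lost without NC 2 (adjusted p = 0.055), NC 4 (0.13), NC 5 (0.073), HFD+RE 4 (0.077) or HFD+RE 5 (0.11). HFD+RE exceeded HFD+AE by 1.02 log2 (SE 0.41, interval 0.13 to 1.90), which did not pass over all genes (adjusted p = 0.61). The differences from HFD were -0.77 in HFD+AE (SE 0.41, adjusted p = 0.25) and 0.25 in HFD+RE (SE 0.41, adjusted p = 0.89). Both turned on single HFD libraries: HFD+AE was -1.15 and passed without HFD 2 (adjusted p = 0.049) and was -0.11 without HFD 3 and -0.31 with the length trend removed, while HFD+RE ran from -0.13 without HFD 2 to 0.91 without HFD 3.

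Angptl4 encodes a lipoprotein lipase inhibitor that PPARs induce on fasting and lies on chromosome 17 at 33773750 to 33781830 (minus strand). Angptl4 was at 256, 152 and 234 CPM in NC 2, 4 and 5, and at 140, 159 and 143 CPM in HFD 1, 2 and 3. It was at 175, 153 and 205 CPM in HFD+AE 1, 2 and 3 and at 90.4, 180 and 132 CPM in HFD+RE 3, 4 and 5. NC 2 and NC 5 were the highest of the 12 libraries, but NC 4 lay among the high-fat libraries. No comparison passed for Angptl4: the changes were -0.54 in HFD against NC (SE 0.26, adjusted p = 0.15), 0.27 and -0.13 in HFD+AE and HFD+RE against HFD (adjusted p = 0.52 and 0.91), and -0.67 in HFD+RE against NC (SE 0.26, adjusted p = 0.14). The paired regulators thus had opposite signs in HFD against NC, and a test of that difference was not made.

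The lipase and uptake genes that these inhibitors bear on showed 2 that rose, 1 that fell and 10 that did not pass of 13 tested in HFD against NC (median 0.07 log2). The share of all genes that passed there was 15.6%. Vldlr encodes the very low density lipoprotein receptor, and was at 1.99, 1.61 and 3.13 CPM in NC 2, 4 and 5 and at 12.0, 8.62 and 9.71 CPM in HFD 1, 2 and 3. It rose by 2.16 log2 (SE 0.36, adjusted p = 0.0049). This call was kept whichever library was left out, and in 18 of the 19 alternative analyses. In HFD+AE, at 7.76, 12.0 and 12.7 CPM, Vldlr was also above NC (2.26, adjusted p = 0.012), except once HFD+AE 2 or NC 4 was left out (adjusted p = 0.053 to 0.064). Cd36, a fatty acid transporter, rose by 1.43 in HFD (adjusted p = 0.032), and hepatic lipase, Lipc, fell by 0.84 (adjusted p = 0.017). The Lipc call was lost without NC 2, NC 4, HFD 1 or HFD 3, and the Cd36 call also without HFD 2 (adjusted p = 0.050 to 0.11 over both). Lpl, the lipoprotein lipase gene, did not pass (-0.06 log2, adjusted p = 0.92). Genes controlled by SREBP1C, ChREBP and LXR, which respond to feeding as Angptl8 does, split in HFD. Of 16, 2 rose, 3 fell and 11 did not pass (median -0.38 log2), where 15.6% of all genes passed. Scd1, the stearoyl-CoA desaturase gene, fell by 2.08 (adjusted p = 0.0049) and Acly by 1.50 (adjusted p = 0.0099), whereas Srebf1 rose by 1.26 (adjusted p = 0.042). In HFD+RE against NC, Srebf1 rose by 2.22 (adjusted p = 0.012) and the sterol exporter gene Abcg5 by 0.76 (adjusted p = 0.026), with 14 of the 16 not passing. Over all genes, 3.96% passed in HFD+RE against NC. The Scd1 call in HFD and the Srebf1 call in HFD+RE held whichever library was left out, and in 18 and 17 of the 19 alternative analyses. Acly was lost without HFD 3 (adjusted p = 0.057), Srebf1 in HFD in 6 omissions (0.056 to 0.13) and Abcg5 in 5 (0.052 to 0.12).

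**Figure D3:**
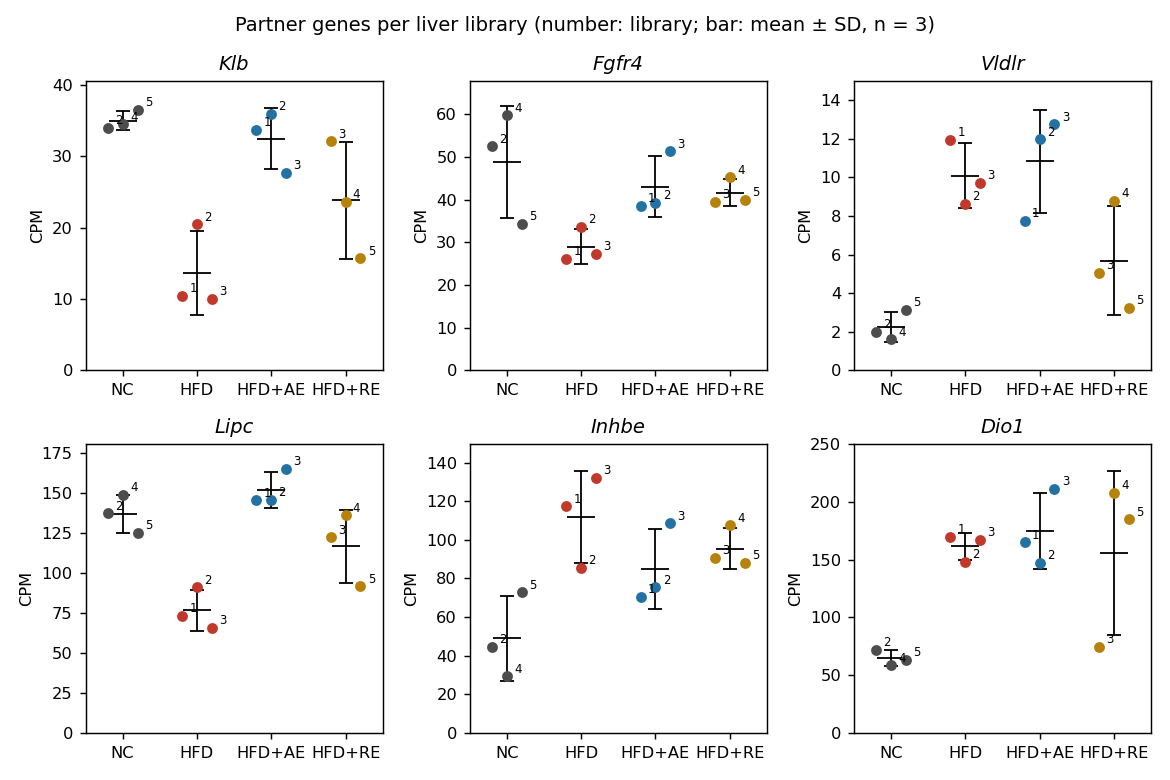
Level (CPM) of 6 partner genes in each liver library, by group, with the library number beside each point and bars for the mean and SD of 3 libraries. Klb and Lipc are lower in all HFD libraries than in any NC library, and Vldlr, Inhbe and Dio1 are higher in all HFD libraries than in any NC library.

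Ahsg and Fetub are neighbours on chromosome 16, at 22891277 to 22899449 and 22918334 to 22939778 (both plus strand), and encode fetuin-A, an inhibitor of the insulin receptor kinase, and fetuin-B. Ahsg shares 62 exon bases with the antisense gene Gm30505, which stood at 0.933 to 3.31 CPM. Ahsg was at 5205, 5080 and 5562 CPM in NC 2, 4 and 5 and at 3871, 4247 and 3503 CPM in HFD 1, 2 and 3. It was at 5480, 5353 and 8039 CPM in HFD+AE 1, 2 and 3 and at 5683, 6585 and 5315 CPM in HFD+RE 3, 4 and 5. The 3 HFD libraries were the lowest of the 12. Fetub was at 524, 470 and 426 CPM in NC, 391, 508 and 432 CPM in HFD, 471, 441 and 820 CPM in HFD+AE and 429, 595 and 460 CPM in HFD+RE. All 4 groups overlapped for Fetub. Ahsg differed from NC by -0.45 log2 in HFD (SE 0.21, adjusted p = 0.15), and with the length trend removed it fell by 0.66 (adjusted p = 0.047). Against HFD, Ahsg was 0.70 higher in HFD+AE (SE 0.21, adjusted p = 0.081, interval 0.24 to 1.16) and 0.60 higher in HFD+RE (SE 0.21, adjusted p = 0.42, interval 0.14 to 1.06). DESeq2 called the HFD+AE difference (0.69, adjusted p = 0.013), and it was 0.48 (adjusted p = 0.13) without HFD+AE 3. For Fetub the changes were -0.09 in HFD against NC (adjusted p = 0.81), 0.38 in HFD+AE against HFD (adjusted p = 0.34; 0.04 without HFD+AE 3) and 0.16 in HFD+RE against HFD (adjusted p = 0.88). Of 7 fetuin relatives and insulin receptor genes, 2 fell, none rose and 5 did not pass in HFD against NC (median -0.45 log2). The share over all genes was 15.6%. Irs1 fell by 2.24 (adjusted p = 0.022) and Irs2 by 1.57 (adjusted p = 0.018), both adaptors of the insulin receptor. The Irs2 call was lost without NC 4 or HFD 1 and the Irs1 call without NC 2, NC 4, HFD 1 or HFD 3 (adjusted p = 0.053 to 0.11 over both).

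Selenop, which encodes the plasma carrier that delivers selenium to other organs, lies on chromosome 15 at 3268547 to 3280508 (plus strand). It shares 439 exon bases with Ccdc152 on the opposite strand, which stood at 4.26 to 10.9 CPM. Selenop was at 5219, 5464 and 4640 CPM in NC 2, 4 and 5 and at 3970, 5669 and 2149 CPM in HFD 1, 2 and 3. It was at 7382, 6886 and 6156 CPM in HFD+AE 1, 2 and 3, above every library of the other 3 groups, and at 5798, 5927 and 4042 CPM in HFD+RE 3, 4 and 5. HFD was the most spread group, with HFD 2 above all NC libraries and HFD 3 below all 12. The change in HFD against NC was -0.38 log2 (SE 0.30, adjusted p = 0.38), which ran from -0.74 without HFD 2 to -0.08 without HFD 3. Against HFD, Selenop was 0.79 higher in HFD+AE (SE 0.30, adjusted p = 0.12, interval 0.15 to 1.44) and 0.42 higher in HFD+RE (SE 0.30, adjusted p = 0.70). The HFD+AE difference passed without HFD 2 (1.16, adjusted p = 0.035) and was 0.50 without HFD 3 (adjusted p = 0.40). Of 20 genes of selenoprotein synthesis and uptake, 4 rose, 2 fell and 14 did not pass in HFD against NC (median 0.20 log2). Over all genes, 15.6% passed in that comparison. Dio1, the deiodinase that activates thyroid hormone, was at 72.0, 58.4 and 63.5 CPM in NC and at 170, 148 and 167 CPM in HFD, and it rose by 1.32 (SE 0.30, adjusted p = 0.017). Gpx4, which reduces lipid peroxides, rose by 1.55 (adjusted p = 0.022), and Selenos, a selenoprotein of the endoplasmic reticulum, fell by 1.03 (adjusted p = 0.015). Dio1 was also higher than NC in HFD+AE (1.43, adjusted p = 0.037) and in HFD+RE (1.27, adjusted p = 0.036). The 3 calls against NC in HFD were lost without NC 4, HFD 1 or HFD 3, and for Gpx4 also without NC 2 (adjusted p = 0.064 to 0.099 over all), while the Dio1 calls in the exercise groups were lost in 9 and 8 of 12 omissions (0.050 to 0.17).

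Lect2, a chemotactic hepatokine linked to muscle insulin resistance, lies on chromosome 13 at 56542464 to 56548502 (minus strand). Lect2 was at 77.6, 82.0 and 78.5 CPM in NC 2, 4 and 5 and at 136, 107 and 117 CPM in HFD 1, 2 and 3. It was at 118, 146 and 154 CPM in HFD+AE 1, 2 and 3 and at 94.8, 146 and 93.6 CPM in HFD+RE 3, 4 and 5. All 9 libraries on the high-fat diet exceeded all 3 NC libraries, which were, relative to the mean, the tightest group of any of the 9 transcripts (79.4 ± 2.31 CPM, SD, n = 3). The change was 0.59 log2 in HFD (SE 0.20, adjusted p = 0.060), 0.81 in HFD+AE (SE 0.20, adjusted p = 0.073) and 0.49 in HFD+RE (SE 0.20, adjusted p = 0.16), each against the same NC libraries. Lect2 therefore missed the threshold in all 3 comparisons with NC. In HFD it passed without HFD+AE 3, HFD+RE 3 or HFD+RE 4 (adjusted p = 0.049, 0.041 and 0.042) and by DESeq2 (0.041), and in HFD+AE it passed without HFD+RE 3 or HFD+RE 4 (0.0498 and 0.042) and by DESeq2 (0.012). With the length trend removed the HFD value was 0.19 (adjusted p = 0.51). In HFD+RE the value was 0.25 without HFD+RE 4, and 0.59 without HFD+AE 3 and HFD+RE 3 together, when it passed (adjusted p = 0.033). The exercise groups differed from HFD by 0.22 (HFD+AE, adjusted p = 0.51; 0.61, adjusted p = 0.086, with the length trend removed) and -0.11 (HFD+RE, adjusted p = 0.91). Of the LECT2 receptor genes Met, Tie1 and Cd209a, 0 of 3 passed in HFD against NC by edgeR (median -0.26 log2). The share over all genes was 15.6%.

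Fst lies on chromosome 13 at 114452290 to 114458951 (minus strand), and shares 115 exon bases with the antisense gene Gm47040, which stood at 0 to 0.0889 CPM. Fst was at 3.16, 3.35 and 2.29 CPM in NC, 2.65, 1.89 and 2.95 CPM in HFD, 1.88, 1.82 and 1.54 CPM in HFD+AE and 2.04, 1.94 and 4.96 CPM in HFD+RE. The HFD+AE libraries were below all libraries of the other 3 groups, but only narrowly. HFD+AE 1 (1.885 CPM, 121 counts) was nearly level with HFD 2 (1.889 CPM, 85 counts). HFD+RE 5 was the highest of the 12. No comparison passed for Fst: the changes were -0.23 in HFD against NC (SE 0.35, adjusted p = 0.67), -0.51 in HFD+AE against HFD (SE 0.36, adjusted p = 0.37) and 0.26 in HFD+RE against HFD (SE 0.35, adjusted p = 0.86; -0.32 without HFD+RE 5). HFD+RE exceeded HFD+AE by 0.77 (SE 0.36, adjusted p = 0.61), or by 0.19 without HFD+RE 5. Of 14 tested activins, follistatin-like proteins and receptors, 2 rose, none fell and 12 did not pass in HFD against NC (median 0.06 log2). This was near the 15.6% of all genes that passed. Inhbe encodes the beta subunit of activin E, a liver-secreted protein that acts on fat tissue. It was at 44.7, 29.3 and 72.9 CPM in NC 2, 4 and 5 and at 117, 85.5 and 132 CPM in HFD 1, 2 and 3, and rose by 1.19 (SE 0.30, adjusted p = 0.023). Fstl1, a follistatin-like glycoprotein gene, rose by 1.18 (adjusted p = 0.026). Both calls were lost without NC 2, NC 4, HFD 1 or HFD 3 (adjusted p = 0.078 to 0.12). In HFD+RE against NC the activin receptor gene Acvr1b rose by 0.99 (adjusted p = 0.012), except once HFD+RE 4 or NC 4 was left out (0.055 to 0.057).

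Against HFD, no hepatokine transcript passed in either exercise group by edgeR. In HFD+AE against HFD, 0 of 9 passed by edgeR, where 0.0492% of all genes passed. At an unadjusted p below 0.05, Ahsg and Selenop passed (2 of 9, against 26.4% of all genes). DESeq2 called 1 of the 9, Ahsg, and 2088 genes in all. Groups did not overlap for 3 of 9 (Ahsg and Selenop above, Fst narrowly below), against 32% of all genes. With HFD+RE against HFD, 0 of 9 passed by edgeR and 0.0109% of all genes did. Gdf15 and Ahsg had an unadjusted p below 0.05 (8.77% of all genes did). DESeq2 called 0 of the 9 and 185 genes in all. The groups did not overlap for Gdf15 and Ahsg, against 14.1% of all genes. The median log2 change of the 9 was 0.22 in HFD+AE and 0.16 in HFD+RE, beside 0.00 and 0.04 over all genes. All 3 comparisons with HFD rest on the same 3 HFD libraries, so an HFD library that is high or low shifts all of them.

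**Figure D4:**
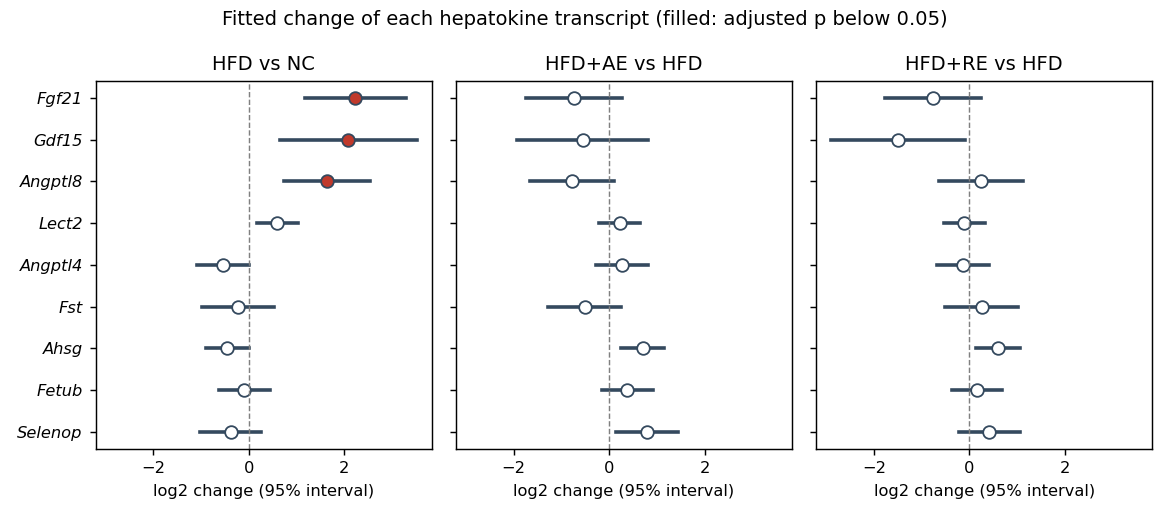
Fitted log2 change of each hepatokine transcript with its 95% interval, for HFD against NC and for each exercise group against HFD; filled points passed at an adjusted p below 0.05. Fgf21, Gdf15 and Angptl8 are filled in HFD against NC, and no point is filled in the exercise panels, where the intervals of Ahsg lie above 0 in both.

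Between the exercise groups, no hepatokine transcript passed. In HFD+RE against HFD+AE, edgeR called 0 of the 9 and 0% of all genes. Angptl8 and Fst had an unadjusted p below 0.05, as did 8.02% of all genes, and DESeq2 called 0 of the 9 and 24 genes in all. Groups did not overlap for Angptl8, Fst and Selenop, 3 of 9 against 11.3% of all genes. Against NC, HFD+AE had 0 of 9 called by edgeR where 1.38% of all genes were. Fgf21, Gdf15 and Lect2 had an unadjusted p below 0.05 (14% of all genes did). DESeq2 called 2 of the 9 (Fgf21 and Lect2) and 791 genes in all, and 5 of 9 groups did not overlap, against 21.8% of genes. HFD+RE against NC had 1 of 9 called, Angptl8, where 3.96% of all genes were, 2.67% as higher. At an unadjusted p below 0.05, 4 of the 9 passed, against 24.5% of all genes, and 3 of 9 groups did not overlap (Fgf21, Angptl8 and Lect2), against 26.1% of genes. Fgf21 and Lect2 in HFD+AE and HFD+RE thus lay above every NC library after exercise, without passing the edgeR test over all genes. By DESeq2, Fgf21 was called in both groups and Lect2 in HFD+AE.

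**Figure D5:**
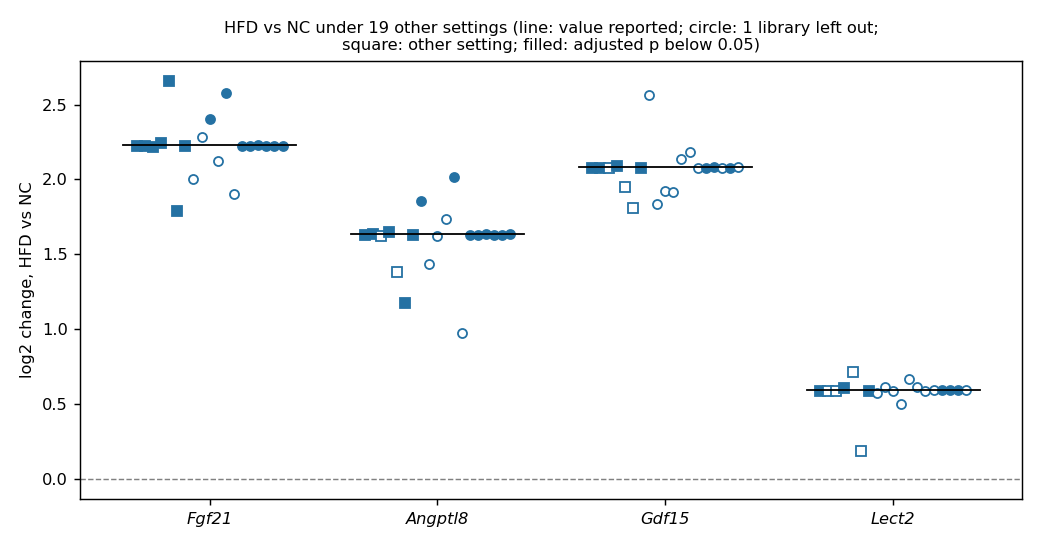
Log2 change in HFD against NC of Fgf21, Angptl8, Gdf15 and Lect2 in 19 alternative analyses; the line is the reported value, circles leave out 1 library, squares are other settings, and filled symbols have an adjusted p below 0.05. Every value lies above 0, and the call held in 15 of 19 for Fgf21, 13 for Angptl8, 7 for Gdf15 and 6 for Lect2.

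Among genes of other secreted liver proteins, the share that passed in HFD against NC was near that of all genes (15.6%). Of 21 further hepatokine genes tested, 1 rose, 2 fell and 18 did not pass in HFD against NC (median 0.19 log2). The insulin-like growth factor binding protein genes parted: Igfbp2 fell by 1.48 (SE 0.29, adjusted p = 0.010) and Igfbp1 fell from 82.2 ± 45.4 CPM to 17.9 ± 12.1 CPM (SD, n = 3, adjusted p = 0.018), while Igfbp3 rose by 1.60 (SE 0.32, adjusted p = 0.011). Igfbp1, which insulin represses, was at 130, 39.5 and 77.3 CPM in NC 2, 4 and 5, 17.3, 30.4 and 6.15 CPM in HFD 1, 2 and 3, 92.4, 99.6 and 66.1 CPM in HFD+AE 1, 2 and 3, and 19.3, 12.8 and 10.2 CPM in HFD+RE 3, 4 and 5. The HFD+AE libraries lay within the NC range and the HFD+RE libraries within that of HFD, and Igfbp1 fell by 2.54 log2 in HFD+RE against NC (adjusted p = 0.020). In HFD+AE against NC, 2 of the 21 rose, 1 fell and 18 did not pass, where 1.38% of all genes passed. In HFD+RE against NC, 2 fell, none rose and 19 did not pass, where 3.96% of all genes passed. Manf, the gene of a secreted endoplasmic reticulum stress protein, fell against NC by 1.83 in HFD+AE (adjusted p = 0.023) and by 1.89 in HFD+RE (adjusted p = 0.013). In HFD+AE against NC, Gdf2 (BMP9) rose by 1.10 (adjusted p = 0.036) and Angptl6 by 1.46 (adjusted p = 0.049). The calls in HFD were lost without HFD 1, and also without HFD 3 for Igfbp1 and Igfbp2, NC 2 for Igfbp1 and NC 4 for Igfbp3 (adjusted p = 0.052 to 0.077 over the 3 genes). Those of HFD+AE and HFD+RE against NC were lost in 2 to 10 of 12 omissions (0.051 to 0.14), NC 4 among them for Manf in both.

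Genes under FOXO1 and glucocorticoid control showed 3 that fell, none that rose and 8 that did not pass of 11 in HFD against NC (median -0.45 log2). Over all genes, 15.6% passed in that comparison. Zbtb16 fell by 1.68 (adjusted p = 0.018), Sgk1 by 1.10 (adjusted p = 0.035) and Tat, also a hepatocyte marker, by 0.87 (adjusted p = 0.044). These calls were lost in 3, 4 and 8 of 12 omissions (adjusted p = 0.050 to 0.17). Against NC in HFD+RE, Zbtb16 fell by 2.26 (adjusted p = 0.012), except once HFD+RE 4, HFD+RE 5 or NC 4 was left out (0.052 to 0.057). No gene of these pathway lists passed in either exercise group against HFD, or between the exercise groups, by edgeR.

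Markers of several cell types passed in the diet comparison, in which 15.6% of all genes did. In HFD against NC, 4 of 10 hepatocyte markers fell and none rose, 1 of 10 Kupffer cell markers and 2 of 10 endothelial markers fell, 5 of 10 stellate cell markers rose and 7 of 13 lymphocyte and plasma cell markers rose. The summed stellate markers were 284 to 376 CPM in HFD and 157 to 175 CPM in NC, the lymphocyte markers 13.1 (HFD 2) to 62.5 and 9.39 to 13.7 CPM, the Kupffer markers 124 to 293 and 281 to 455 CPM, and the endothelial markers 154 to 244 and 317 to 399 CPM. In HFD+AE and HFD+RE the summed lymphocyte markers were 7.64 to 12.1 and 13.9 to 17.9 CPM. No neutrophil or cholangiocyte marker passed by edgeR (of 6 and 5 tested). Of 8 adipocyte markers 4 were tested and Cfd and Plin4 rose, but Adipoq, Plin1 and Retn did not exceed 0.142 CPM in any library and Lep had no count. Of 6 pancreatic acinar markers 2 were tested and Cela1 fell, with no counts of Cpa1 or Pnlip. The part of these cell types in the levels of Fgf21, Gdf15, Angptl8 and the other hepatokines was not tested.

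Over the 12 libraries, the genes whose log2 CPM ran most like each hepatokine were chosen from 14115 tested genes as the 2 with the highest Pearson r. They were Cbx6 and Tcf21 for Fgf21 (both 0.96), Slc13a3 and Tmc6 for Gdf15 (both 0.94), Ccdc57 and Stn1 for Angptl8 (0.93 and 0.92), and Fbxo28 and Nlrp12 for Angptl4 (0.91 and 0.87). For Ahsg they were Egln2 and Brap (0.98 and 0.96), for Fetub Smarcc2 and Ppp1ca (both 0.96), for Selenop Fbxl5 and Cox15 (0.96 and 0.95), for Lect2 Gypc and Vldlr (both 0.92) and for Fst Akap8l and Wipi1 (0.89 and 0.85). These values describe 12 libraries that share the 4 groups and the RNA measures given above, and the highest of many correlations is high by selection.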

How the data were processed

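The authors deposited 1 table of raw counts for the 12 liver libraries. Reads were assigned to genes with featureCounts 2.0.6, per the file headers, and the submitters' processing notes also name mm10, fastp, HISAT2 2.2.1 and DESeq2 1.40.1. The strand setting, the annotation release and the treatment of multi-mapped reads were not given in the sources used here. Hence genes that overlap another gene are uncertain, and isoforms are not told apart. No 2 libraries agreed within sampling noise.

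Counts were fitted with edgeR 4.0.16 (R 4.3.3): low-count filter by group, TMM scaling, a mean for each of 4 groups over all 12 libraries, and a robust quasi-likelihood F-test. P-values were adjusted (Benjamini-Hochberg) over all 18305 genes tested, and a gene passed below 0.05. Levels are CPM after TMM scaling; log2 CPM for principal components and likeness used a prior count of 2. The fit was checked on simulated data. Alternatives were DESeq2 1.42.0, RLE scaling, no filter, only the groups compared, a replicate block, a length trend removed, HFD+AE 3 and HFD+RE 3 left out together, and each library left out in turn.

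The hepatokines, gene lists and alternatives were chosen with earlier results of these data known. Beside the 9 hepatokines, the genes to name were up to 3 called genes of each list and comparison by smallest p, and the 2 genes most like each hepatokine. Atf4, Lpl, the LECT2 receptor genes and markers near 0 were named after their values were seen. Of the genes the rule took, part is given with values.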

Additional observations from a re-analysis of the deposited data

How the results depend on the processing

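Of the 9 hepatokine transcripts in 6 comparisons, no called log2 change turned its sign in any alternative: 978 of the alternative values stayed on the same side of the threshold, 29 lost a call and 19 gained one. In HFD against NC, where 3 passed, 1 passed without the low-count filter, 1 with the replicate block, and 0 to 4 when 1 library was left out. In HFD+AE against HFD, where none passed, 1 passed by DESeq2, 1 without HFD+AE 3 and HFD+RE 3 together, and 0 to 2 with 1 library left out. In HFD+AE against NC, where none passed, 2 passed by DESeq2 and 0 to 1 with 1 library left out. In HFD+RE against NC, where 1 passed, 2 passed by DESeq2, 0 without the filter, 0 with the replicate block, 3 without HFD+AE 3 and HFD+RE 3 together, and 0 to 2 with 1 library left out. Against HFD and against HFD+AE, HFD+RE had no call in any alternative. For the called genes of the gene lists, 984 alternative values kept the call and 403 lost it.

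Counts over all genes moved more. HFD against NC had 2851 calls, 4928 with only its groups, 325 with the block, 6258 without HFD+AE 3 and HFD+RE 3, and 411 to 4462 with 1 library left out. HFD+AE against HFD had 9, and 2088 by DESeq2, 95 with the length trend removed, 953 without the filter, 649 with only its groups, 2 with the block, 4253 without both libraries and 0 to 1930 with 1 left out. HFD+RE against HFD had 2, and 1 to 185 over the alternatives; HFD+RE against HFD+AE had 0, and 24 by DESeq2 and 4170 without both libraries. HFD+AE against NC had 253 (1 to 791) and HFD+RE against NC 724 (15 to 5989), with 791 and 1940 by DESeq2. The cause was not tested.

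The replicate numbers pair no samples by the labels, and same-numbered libraries had correlations of -0.50 to 0.16 in their deviations from the group means, so the replicate block is given only here; it left Fgf21 called in HFD against NC (2.66, adjusted p = 0.046) and removed Gdf15 and Angptl8. With 3 libraries a group, the 95% intervals span more than 1 log2 unit for each hepatokine transcript except Ahsg and Lect2.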
